A study of Mus musculus with 19 samples.

Results

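The 10 genes described here belong to the glucocorticoid response and were measured in the striatum of Huntington's disease knock-in mice: 8 that glucocorticoids induce and the 2 receptors that bind the hormone. The members were taken by gene symbol from the table of 54232 counted genes: Fkbp5, Sgk1, Tsc22d3, Mt1, Mt2, Plin4, Cdkn1a, Pdk4, Nr3c1 and Nr3c2. All 10 were found, and 9 of the 10 were among the 18521 genes with enough reads for testing. Mt2 had 0 to 14 counts in a mouse and did not pass the filter on low counts.

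The striatum of 19 mice on the C57/BL/6 background was sequenced at 6 months of age: 7 WT mice and 4 of each knock-in line, KI-96, KI-571 and KI-FL. KI-FL mice carry the HD140Q knock-in allele and make full-length mutant huntingtin. In KI-571 and KI-96 mice the mutant allele was cut short by CRISPR/Cas9, so that a longer and a shorter N-terminal fragment of the protein is made. The knock-in mice were heterozygous, so that a normal Htt allele is present in every group. The labels list no hormone, drug or stressor for any mouse, and give no sex and no hour of tissue collection.

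Glucocorticoids, chiefly corticosterone in the mouse, are released from the adrenal gland in a daily rhythm and after stress. In the cell the hormone binds the glucocorticoid receptor (Nr3c1) or, with higher affinity, the mineralocorticoid receptor (Nr3c2), and the receptor moves to the nucleus and binds a palindromic DNA element near its target genes. Fkbp5 encodes a co-chaperone that lowers the receptor's affinity for hormone and is itself induced, which closes a negative feedback loop. In brain tissue many of the strongest responses are seen in glia and in cells of the blood vessels as well as in neurons.

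Promoter sequences are given first for the 3 induced members whose RefSeq windows held a letter match to the receptor's element or to 1 arm of it. RefSeq windows (GRCm38.p6), restricted to the 250 bases before a transcription start, were matched by symbol for 9 of the 10 members, with 17 windows in all because Sgk1 has 6 starts, Tsc22d3 has 3 and Cdkn1a has 2. The window of Nr3c1 was not matched. The full element was searched as GNACA, any 3 bases and then TGTNC, and its arm as TGTTCT, both on either strand, and the 2 overlap where a full element ends in the arm. In the lines that follow, capitals mark these matches and all else is in lower case. The Sgk1 window lies at chr10:21993640-21993889 on the plus strand, the Mt1 window at chr8:94178839-94179088 on the plus strand and the Tsc22d3 window at chrX:140600523-140600772 on the minus strand.
Sgk1: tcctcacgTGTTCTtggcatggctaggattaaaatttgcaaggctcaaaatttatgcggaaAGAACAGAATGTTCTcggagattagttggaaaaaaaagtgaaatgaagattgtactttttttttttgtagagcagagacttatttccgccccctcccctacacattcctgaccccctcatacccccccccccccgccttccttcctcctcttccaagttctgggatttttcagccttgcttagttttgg
Mt1: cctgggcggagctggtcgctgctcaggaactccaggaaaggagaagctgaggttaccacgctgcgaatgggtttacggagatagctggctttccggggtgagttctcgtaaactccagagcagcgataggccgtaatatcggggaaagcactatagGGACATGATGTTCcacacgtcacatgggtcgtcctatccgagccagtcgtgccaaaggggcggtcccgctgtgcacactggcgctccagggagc
Tsc22d3: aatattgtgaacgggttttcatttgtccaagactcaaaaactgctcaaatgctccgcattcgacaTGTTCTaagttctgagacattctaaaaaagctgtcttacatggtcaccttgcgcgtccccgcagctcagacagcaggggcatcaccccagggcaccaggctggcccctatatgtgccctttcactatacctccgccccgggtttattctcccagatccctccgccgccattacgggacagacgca

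In the Sgk1 window the full element began 188 bases before the start, with the letters GAACAGAATGTTC, and arm matches 189 and 180 bases before the start overlapped it. A further arm match began 242 bases before the start. The Mt1 window held GGACATGATGTTC, 94 bases before the start. The full element was thus present in 2 of the 17 windows of members, and it was present in 0.387% of the 32851 windows of all genes. The arm, with or without the full element, was in 4 of the 17 windows, 3 of Sgk1 and 1 of Tsc22d3, and in 16.1% of all windows. The core of the metal response element, TGCACNC or TGCGCNC on either strand, was in the windows of Mt1, Mt2 and Nr3c2 and in 21.4% of all windows. The windows of Fkbp5, Mt2, Plin4, Cdkn1a, Pdk4 and Nr3c2 held neither glucocorticoid motif. These are letter matches in a short window, and no binding was measured.

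Levels are given as CPM, reads on a gene relative to the reads on all genes, after TMM scaling. Between genes, levels are compared as RPKM, the same value per kilobase of exon. In the 7 WT mice, Mt1, the metal-binding metallothionein, had the highest level with 191 ± 38.3 RPKM (SD, n = 7). Sgk1, a kinase that acts on ion channels and transporters, followed with 35.4 ± 15.3 RPKM (SD, n = 7). Tsc22d3, the leucine zipper protein GILZ, at 15 ± 3.07 RPKM (SD, n = 7), and the receptor Nr3c1 at 13.5 ± 0.684 RPKM (SD, n = 7) did not differ beyond their spread. Nr3c2 was at 7.93 ± 0.975 RPKM (SD, n = 7), below Nr3c1. Fkbp5 at 4.77 ± 0.795 RPKM, Pdk4, a kinase that blocks the entry of pyruvate into the citric acid cycle, at 4.66 ± 1.07 RPKM and Cdkn1a, the cell cycle inhibitor p21, at 4.22 ± 0.851 RPKM (SD, n = 7 each) lay within each other's spread. Plin4, a coat protein of lipid droplets, was lowest of the 9 tested members at 1.79 ± 1.47 RPKM (SD, n = 7).

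Total reads on genes ran from 12669809 to 26388542 per mouse. Markers of striatal projection neurons, the main cell type of this tissue, summed to 4940 to 8730 CPM over the 19 mice. Markers of cortical excitatory neurons summed to 9.88 to 1010 CPM. Markers of liver summed to 0.344 to 0.909 CPM in WT, 0.379 to 37.1 in KI-96, 2.88 to 10.3 in KI-571 and 0.606 to 11.3 CPM in KI-FL mice. Markers of red blood cells summed to 79.5 to 214 CPM in WT, 86.6 to 141 in KI-96, 163 to 483 in KI-571 and 43.5 to 103 CPM in KI-FL mice. The part of these differences in the levels of the members was not tested. Xist reached at least 886 CPM in 6 mice, namely KI-FL replicate 2, WT replicate 1 and the 4 KI-96 mice, and no more than 5.05 CPM elsewhere, so that sex and the KI-96 genotype cannot be fully told apart. Fits with Xist as a covariate take the effect of sex mainly from WT replicate 1 and KI-FL replicate 2, whose groups were otherwise low in Xist. The genes detected numbered 16384 in KI-FL replicate 4 and 23177 to 28700 elsewhere. Reads on no gene made up 24.2% in KI-96 replicate 3. Htt was at 168 to 195 CPM in WT mice, 143 to 240 CPM in KI-96, 104 to 141 CPM in KI-571 and 137 to 179 CPM in KI-FL mice. These counts do not separate the mutant from the normal allele.

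No member differed between genotypes at an adjusted p-value under 0.05 (edgeR quasi-likelihood test with Benjamini-Hochberg adjustment over 18521 genes), and the member nearest to the threshold was Fkbp5 in KI-FL mice. Against WT mice, 0 of the 9 tested members passed in any of the 3 KI genotypes, where, in the order KI-96, KI-571, KI-FL, 0.027%, 0.0324% and 0.194% of all tested genes passed. Over the 3 KI genotypes together 0 passed (0.054% of all tested genes). Between KI-96 and KI-FL mice 0 members passed, as did 0 of all tested genes (0%). KI-571 compared with KI-FL, and KI-96 compared with KI-571, gave 0 members (0.0864% and 0.0054% of all tested genes). With DESeq2 the count of members was 1 in KI-FL mice and 0 in the other comparisons. These are whole tissue samples, in which fewer cells of a type and less RNA per cell cannot be told apart. The 3 comparisons with WT share the same 7 WT mice.

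At an unadjusted p-value under 0.05, 2 of 9 members were called in KI-96 mice (Sgk1 and Nr3c2, where 7.45% of all genes were), 1 in KI-571 mice (Fkbp5, against 7.72%), 1 in KI-FL mice (Fkbp5, against 16.7%) and 1 over all KI mice (Fkbp5, against 12.9%). The count of 2 for KI-96 against WT mice did not hold. It was 0 with Xist as a covariate (235 of 18521 genes) and 0 without KI-96 replicate 3 (1233 of 18746 genes). Against WT replicates 1 to 4 alone it was 0 (527 of 18128 genes), and against WT replicates 5 to 7 alone 4 (1554 of 18760 genes). Between KI-96 and KI-FL mice 4 of 9 were called (Pdk4, Cdkn1a, Plin4 and Fkbp5, against 8.9% of all genes), each lower in KI-96 mice. The count was 1 without KI-FL replicate 2, and also 1 with WT replicate 2 left out as well. KI-571 compared with KI-FL gave 0 of 9 (8.9% of all genes), and KI-96 compared with KI-571 gave 0 of 9 (5.51% of all genes). The comparisons of single genotypes called here are the intervals that leave out 0 in the plot of fold changes. None of the 9 members had groups that did not overlap with WT, a state that 1.24% of all tested genes reached in KI-96, 1.55% in KI-571 and 5.29% in KI-FL mice.

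**Figure D1:**
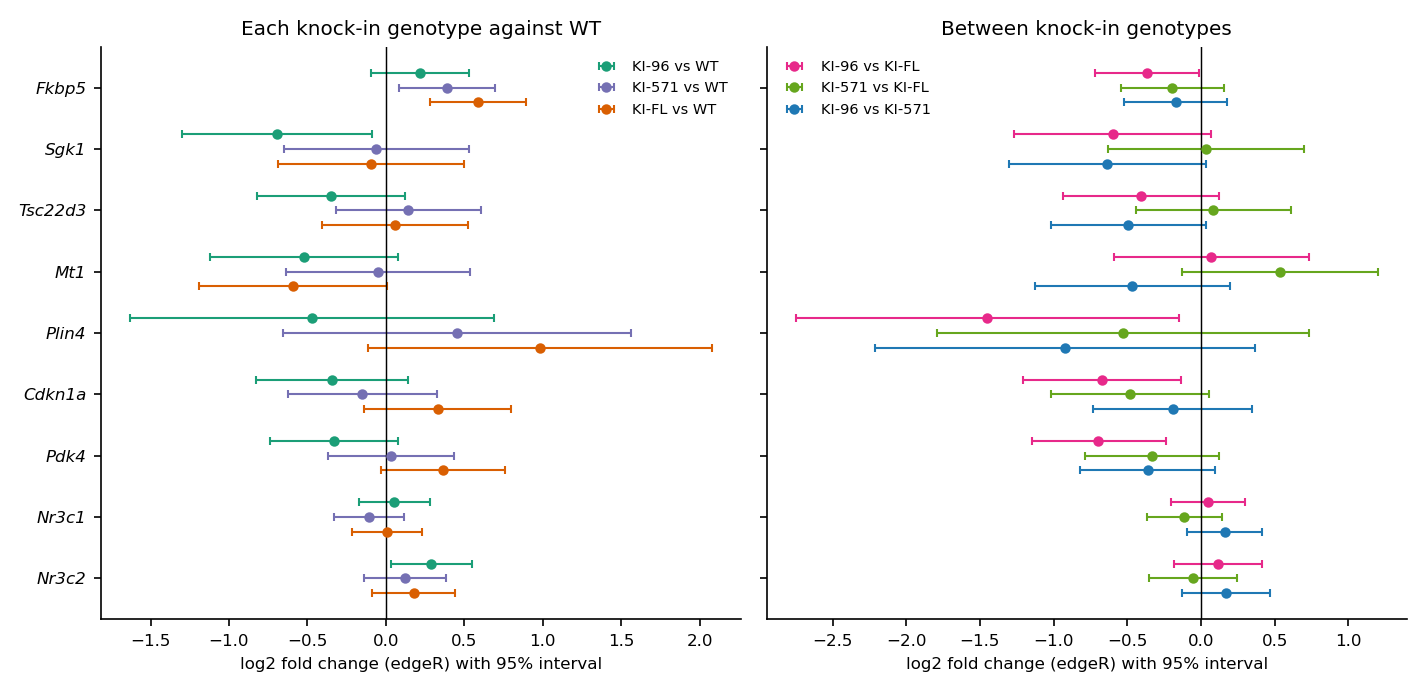
Log2 fold changes of the 9 tested members with 95% intervals from edgeR; the horizontal axes are log2 fold change (0 is no difference) and the colours are the comparisons, each KI genotype against WT in the left panel and KI genotypes against each other in the right panel. Fkbp5 is above 0 against WT in all 3 genotypes, with the largest value of 0.59 in KI-FL mice, and the widest intervals belong to Plin4.

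Fkbp5 (ENSMUSG00000024222.16; chr17:28399094-28517527, minus strand, GRCm38) ran in WT mice from 39.1 to 61.1 CPM with a median of 42.5. The KI-96 mice were at 58.9, 51.3, 55.7 and 44.3 CPM, the KI-571 mice at 76, 56.8, 48.1 and 55.7 CPM, and the KI-FL mice at 69, 92.6, 55.2 and 54.8 CPM. Every KI mouse except KI-96 replicate 4 lay above 46.9 CPM, the value of the second highest WT mouse, yet WT replicate 2, at 61.1 CPM, lay above 9 of the 12 KI mice, so that the groups overlapped. The mean was 45.2 ± 7.52 CPM (SD, n = 7) in WT, 52.6 ± 6.34 in KI-96, 59.2 ± 11.9 in KI-571 and 67.9 ± 17.7 CPM in KI-FL mice (SD, n = 4 each). The log2 fold change against WT was 0.22 (standard error, SE, 0.15) in KI-96 mice, 0.39 (SE 0.15, adjusted p = 0.469) in KI-571 mice and 0.59 (SE 0.15, adjusted p = 0.080) in KI-FL mice, a fold of 1.5. In KI-FL mice it stood at rank 152 of the 18521 genes by p-value. Over all KI mice it was 0.40 (SE 0.12, adjusted p = 0.149).

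The call for Fkbp5 in KI-FL mice depended on the tool and on the settings. DESeq2 gave a log2 fold change of 0.57 with an adjusted p of 0.0229, and with it 509 genes passed in this comparison in place of 36, or 2.75% of the genes tested. At an adjusted p under 0.1 in edgeR it was also called, among 1.43% of the genes. Without KI-FL replicate 2, whose level was the highest of all mice, the log2 fold change was 0.40, and over the other 18 mice left out in turn it reached up to 0.68 (adjusted p of 0.0521 to 0.183 over the 19 fits). Against WT replicates 1 to 4 alone it was 0.52 and against WT replicates 5 to 7 alone, which were sequenced more deeply, 0.66. With both WT replicate 2 and KI-FL replicate 2 left out it was 0.49 (adjusted p = 0.133). Under all of these the value stayed above 0. Over the 13 alternatives other than each mouse left out in turn, the adjusted p (edgeR or DESeq2) ran from 0.0229 to 0.487. With Xist as a covariate, and with the replicate number as a term, 0 of the 18521 genes passed in KI-FL against WT mice. In KI-571 mice the log2 fold change of Fkbp5 was 0.24 without KI-571 replicate 1, and in KI-96 mice it was 0.03 with Xist as a covariate.

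Sgk1 (ENSMUSG00000019970.15; chr10:21882184-21999903, plus strand) spread widely in WT mice, from 93.6 to 285 CPM with a median of 159. The KI-96 mice were at 162, 74.8, 93.2 and 98.3 CPM, the KI-571 mice at 152, 121, 176 and 217 CPM, and the KI-FL mice at 126, 256, 117 and 151 CPM. KI-96 replicates 2 and 3 lay below every WT mouse and the other KI-96 mice inside the WT range. For KI-96 against WT the log2 fold change was -0.70 (SE 0.29, adjusted p = 0.642), and it was -0.53 without WT replicate 2 and -0.97 without KI-96 replicate 1. With Xist as a covariate, where the effect of sex comes mainly from WT replicate 1 and KI-FL replicate 2, it was -0.81. In KI-571 and KI-FL mice it was -0.06 and -0.10 with standard errors of 0.29.

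Tsc22d3 (ENSMUSG00000031431.13; chrX:140539528-140600659, minus strand) ran from 49.5 to 88.8 CPM in WT mice with a median of 61.3. It was at 50.1, 44, 38.3 and 71.1 CPM in KI-96 mice, 52, 74.7, 70.8 and 89.5 CPM in KI-571 mice and 67.8, 114, 47.2 and 42 CPM in KI-FL mice. The KI-FL group thus held both the highest value of the series and a pair of mice below every WT mouse. Its log2 fold changes against WT were -0.35, 0.14 and 0.06, with intervals that all included 0.

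Plin4 (ENSMUSG00000002831.13; chr17:56100591-56109803, minus strand) had the widest spread of the members. WT mice were at 4.19 to 28.9 CPM with a median of 7.68, KI-96 mice at 5.77, 4.84, 9.38 and 9.68 CPM, KI-571 mice at 14.3, 16.1, 7.34 and 18.9 CPM, and KI-FL mice at 14.9, 56.3, 4.6 and 6.72 CPM. A single mouse in each of the WT and KI-FL groups, replicate 2 in both, lay far above the others. Against WT the log2 fold changes were -0.47 in KI-96, 0.45 in KI-571 and 0.98 (SE 0.53, adjusted p = 0.354) in KI-FL mice. The value in KI-FL mice was -0.25 without KI-FL replicate 2 and 1.48 without WT replicate 2, and that in KI-96 mice was 0.03 without WT replicate 2. Relative to KI-FL, KI-96 mice had a log2 fold change of -1.45 (SE 0.63, adjusted p = 0.539), and without KI-FL replicate 2 it was -0.22. Of its 5777 exon bases, 17 overlap Hdgfl2 on the other strand.

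Cdkn1a (ENSMUSG00000023067.13; chr17:29090976-29100727, plus strand) was at 11.4 to 19.3 CPM in WT mice with a median of 15.6. KI-96 mice were at 16, 11.2, 8.29 and 11.8 CPM, KI-571 mice at 14.9, 8.51, 15.7 and 14.8 CPM, and KI-FL mice at 12.5, 31.3, 16.7 and 15 CPM. Pdk4 (ENSMUSG00000019577.6; chr6:5483351-5496309, minus strand) was at 11 to 22.2 CPM in WT mice with a median of 15.3. KI-96 mice were at 15.9, 13.9, 10.1 and 12.3 CPM, KI-571 mice at 12.3, 16.5, 19.6 and 18.6 CPM, and KI-FL mice at 16.6, 31.3, 18 and 18.7 CPM. For Pdk4 all 4 KI-96 mice lay below all 4 KI-FL mice, as 1 of the 9 tested members, where 3.16% of all tested genes did not overlap between these genotypes in either direction. For Cdkn1a the groups overlapped. Against WT the log2 fold changes of Pdk4 were -0.33, 0.03 and 0.36 in KI-96, then KI-571, then KI-FL mice, and those of Cdkn1a were -0.34, -0.15 and 0.33, with intervals that included 0. Without KI-FL replicate 2 the values in KI-FL mice were 0.12 for Pdk4 and -0.02 for Cdkn1a. In KI-96 relative to KI-FL mice, Pdk4 had a log2 fold change of -0.70 (SE 0.22, adjusted p = 0.413) and Cdkn1a one of -0.67 (SE 0.26, adjusted p = 0.482). Without KI-FL replicate 2 they were -0.45 and -0.32. Because all KI-96 mice and only KI-FL replicate 2 among the KI-FL mice had high Xist, the genotypes differed in sex as well, and with Xist as a covariate they were -0.86 and -0.86. That fit takes the effect of sex mainly from WT replicate 1 and KI-FL replicate 2, the latter the highest mouse for both genes. Its values thus cannot separate sex from the level of that mouse. Of the 3553 exon bases of Cdkn1a, 7.68% overlap a gene on the other strand.

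Mt1 (ENSMUSG00000031765.8; chr8:94179082-94180327, plus strand) was at 177 to 298 CPM in WT mice with a median of 256. KI-96 mice were at 158, 213, 46.9 and 245 CPM, KI-571 mice at 141, 204, 261 and 310 CPM, and KI-FL mice at 163, 190, 158 and 122 CPM. Of the 4 KI-FL mice 3 lay below every WT mouse, and KI-96 replicate 3 had by far the lowest value. The log2 fold change was -0.59 in KI-FL mice (SE 0.29, adjusted p = 0.308) and -0.52 in KI-96 mice (SE 0.29). The latter was -0.21 without KI-96 replicate 3 and -0.77 without KI-96 replicate 4. The adjacent Mt2 (ENSMUSG00000031762.7; chr8:94172664-94173568, plus strand) shares 73.5% of its 588 exon bases with exons of the antisense gene Gm45774, which was itself at 0 to 14 counts. The strand setting of the counting is not given in the sources used here. If strand was not used, reads in the shared part could not be given to either gene, so that the low count of Mt2 cannot be read as low expression.

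The receptors varied least within genotypes. Nr3c1 (ENSMUSG00000024431.14; chr18:39410545-39519421, minus strand) was at 96.6 to 113 CPM in WT mice with a median of 103. It was at 114, 86.2, 135 and 94.9 CPM in KI-96 mice, 111, 90.2, 92.3 and 91.7 CPM in KI-571 mice and 102, 92.8, 96 and 125 CPM in KI-FL mice. Its log2 fold changes against WT were 0.05 (95% interval -0.17 to 0.28) in KI-96, -0.11 (-0.33 to 0.12) in KI-571 and 0.01 (-0.22 to 0.23) in KI-FL mice. The intervals leave room for differences of up to about these bounds in either direction. Nr3c2 (ENSMUSG00000031618.13; chr8:76899442-77245012, plus strand) was at 45.5 to 64.3 CPM in WT mice with a median of 48.3. KI-96 mice were at 67.5, 57.7, 78.3 and 47.7 CPM, KI-571 mice at 70.3, 53.4, 49.3 and 50.2 CPM, and KI-FL mice at 58.6, 51.3, 58.0 and 64.1 CPM. Values above the WT range came from KI-96 replicates 1 and 3 and KI-571 replicate 1. For KI-96 against WT the log2 fold change was 0.29 (SE 0.13, adjusted p = 0.649), and 0.16 without KI-96 replicate 3. With Xist as a covariate it was 0.18.

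**Figure D2:**
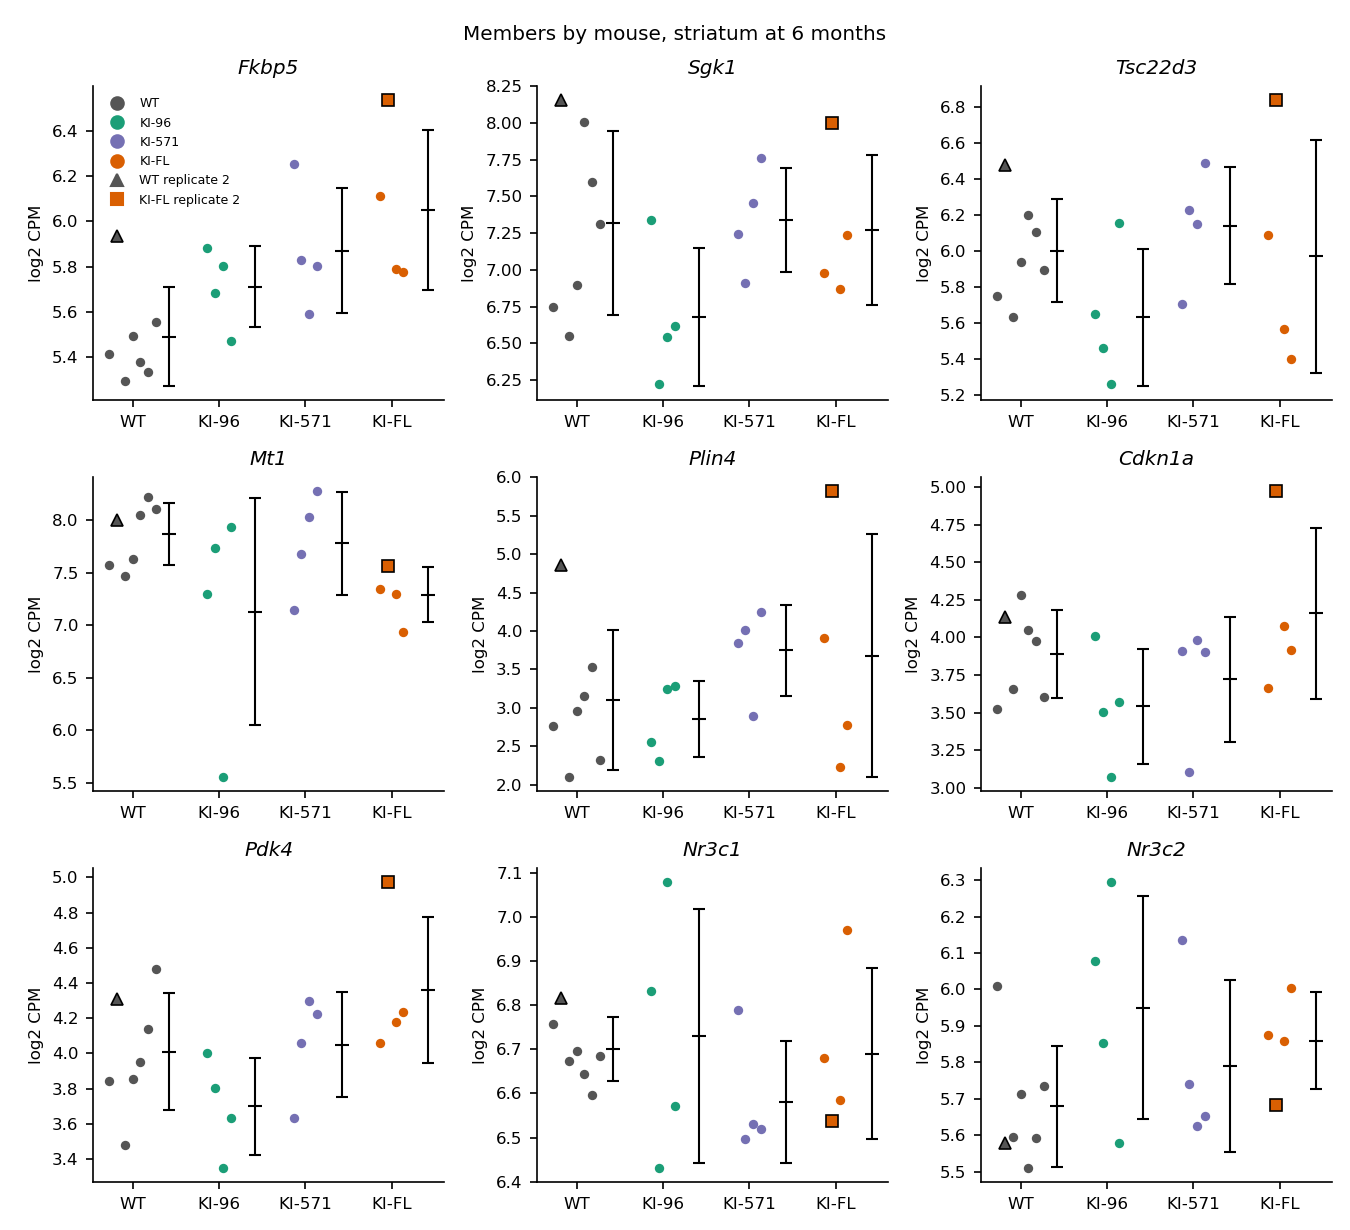
Log2 CPM of the 9 tested members in each of the 19 mice, by genotype; points are mice, bars beside them are the mean and SD of the group, and each panel has its own vertical axis. WT replicate 2 (triangle) and KI-FL replicate 2 (square) are the highest mice of their groups for Fkbp5, Sgk1, Tsc22d3 and Plin4, whereas KI-FL replicate 2 is the lowest KI-FL mouse for Nr3c1 and Nr3c2.

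The spread between mice of one genotype was large for most of the induced members. Against tested genes of a like level, the within-genotype SD of log2 CPM stood at the percentile 99.8 for Mt1 (SD 0.58), 99.6 for Plin4 (SD 0.98), 99.4 for Sgk1 (SD 0.53) and 97.6 for Tsc22d3 (SD 0.41). It stood at 89.6 for Cdkn1a, 83 for Fkbp5 and 82 for Pdk4. The receptors were near the middle, at 49.1 for Nr3c1 (SD 0.17) and 63.7 for Nr3c2 (SD 0.21). The differences between genotypes given above are set against this spread.

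The members were then compared with each other over the 19 mice, after the mean of each genotype was taken from its mice, so that a difference between genotypes does not enter. Of the 45 pairs of the 10 members, Mt2 included, 13 were correlated at an adjusted p under 0.05 (permutation test within genotypes, 100000 permutations, two-sided, Benjamini-Hochberg adjustment over the 45 pairs). Of these 13, 7 were positive and joined induced members other than Mt1, and 2 were positive and joined Mt1 to Tsc22d3 and to Pdk4. The other 4 involved a receptor: Mt1 with each receptor and Tsc22d3 with Nr3c2 were opposed, and the receptors went together. The highest positive r was that of Tsc22d3 and Plin4 (r = 0.791, rho = 0.742, permutation p = 0.00151, adjusted p = 0.017). The share of all gene pairs that would pass was not measured. Of the 18520 other tested genes, 0.119% had an r with Tsc22d3 at least as high as that of Plin4. With Sgk1 the share was 0.157% at the r of Pdk4 and 0.346% at that of Plin4. With Mt1 it was 9.29% at the r of Tsc22d3 and 9.88% at that of Pdk4. With Nr3c2 it was 2.45% at the r of Nr3c1. The share depends on which gene of a pair is taken as the reference. At the r of Mt1 it was 3.74% with Tsc22d3 and 0.956% with Pdk4. At the r of Sgk1 it was 0.281% with Pdk4 and 0.902% with Plin4. It was 0.0432% with Plin4 at the r of Tsc22d3, and 1.56% with Nr3c1 at the r of Nr3c2.

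Tsc22d3 was in 5 of the 13 pairs and Sgk1 in 4. Sgk1 was correlated with Pdk4 (r = 0.668, rho = 0.696, permutation p = 0.00592, adjusted p = 0.0266), Cdkn1a (r = 0.653, rho = 0.605, adjusted permutation p = 0.0266), Tsc22d3 (r = 0.637, rho = 0.582, adjusted permutation p = 0.0266) and Plin4 (r = 0.610, rho = 0.498, adjusted permutation p = 0.0423). Tsc22d3 was also correlated with Pdk4 (r = 0.640, adjusted permutation p = 0.0423). Fkbp5 was correlated only with Plin4 of the 9 other members (r = 0.712, rho = 0.519, permutation p = 0.0073, adjusted p = 0.0299), and its r with Sgk1 was 0.465 (adjusted permutation p = 0.167). Where r and rho are both printed, the p-values are those of r. By the permutation test of rho, 9 pairs passed, all among the 13. Those lost were Fkbp5 with Plin4 (adjusted permutation p of rho = 0.171), Sgk1 with Plin4 (0.151), Sgk1 with Tsc22d3 (0.0529) and Tsc22d3 with Pdk4 (0.0691).

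Several of these relations rested on WT replicate 2 and KI-FL replicate 2, the mice farthest from the median of Fkbp5 and of Sgk1. Without them r was 0.27 for Fkbp5 and Plin4, 0.266 for Sgk1 and Plin4, 0.415 for Sgk1 and Tsc22d3, 0.521 for Sgk1 and Pdk4 and 0.529 for Sgk1 and Cdkn1a, and r of Fkbp5 with Sgk1 was 0.0368. Only 3 of the 45 pairs then passed, Mt1 with Nr3c1, Mt1 with Nr3c2 and the 2 receptors with each other. Of the pairs that no longer passed, r was not smaller for Tsc22d3 and Mt1 (0.707), Tsc22d3 and Nr3c2 (-0.728) or Mt1 and Pdk4 (0.628). Among the 13 mice with low Xist 0 of the 45 pairs passed, and none of the 13 pairs changed sign there. In the 7 WT mice alone r of Sgk1 and Tsc22d3 was 0.947, and in the 12 KI mice it was 0.544.

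**Figure D3:**
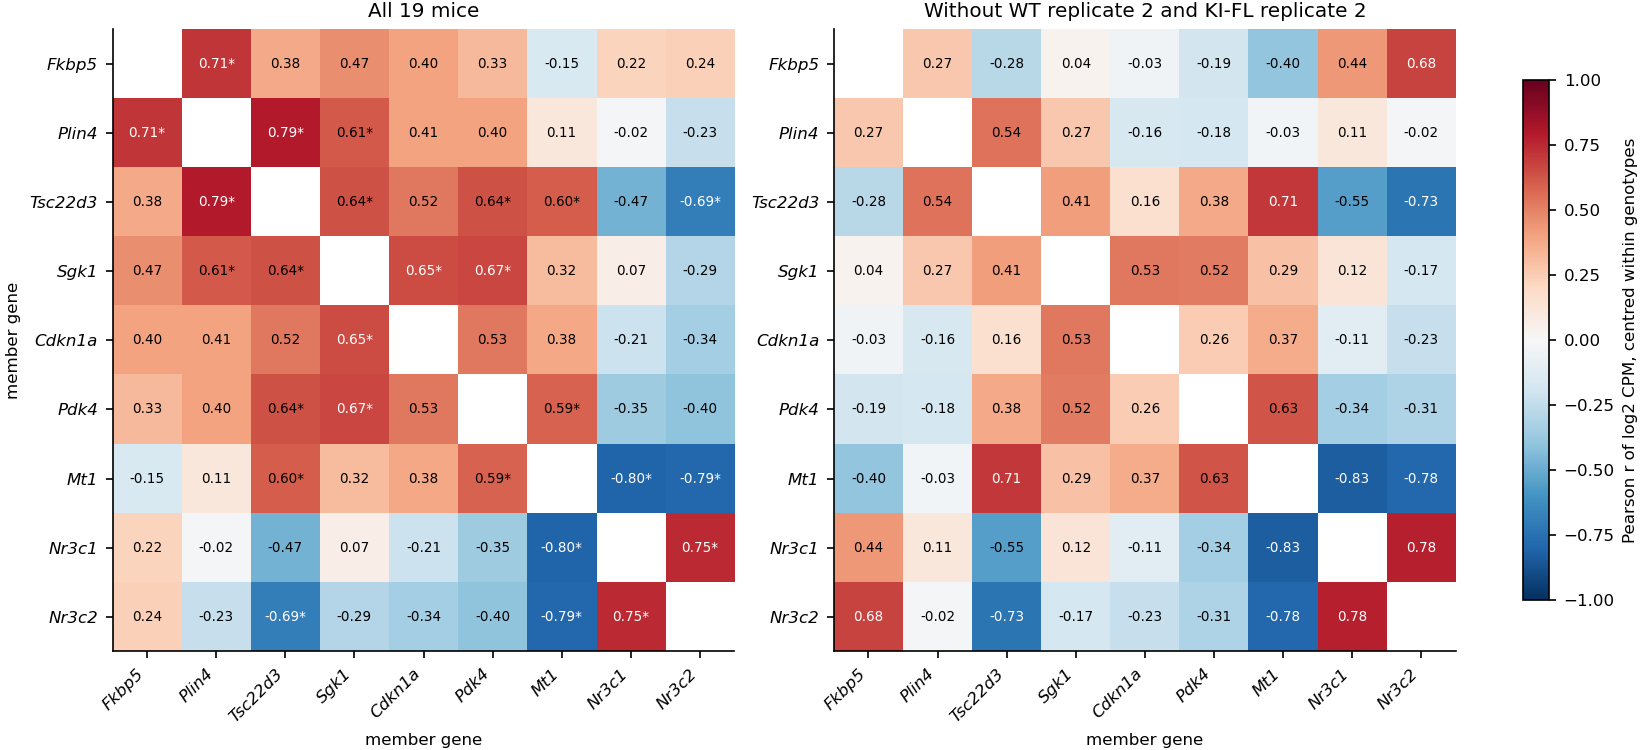
Pearson r of log2 CPM between the 9 tested members, centred within genotypes, over all 19 mice (left) and over 17 mice (right); both axes are genes, the colour runs from -1 to 1, and a star marks an adjusted permutation p under 0.05 over 45 pairs in the left panel. The block of positive values among Plin4, Tsc22d3, Sgk1, Cdkn1a and Pdk4 is paler in the right panel, whereas the values of Mt1 with Nr3c1 and Nr3c2 are -0.80 and -0.79 in the left panel and -0.83 and -0.78 in the right panel.

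WT replicate 2 and KI-FL replicate 2, singled out after their values were seen, were both the highest mouse of their group for 4 of the 9 tested members (Fkbp5, Sgk1, Tsc22d3 and Plin4). The same was true of 8 of 25 other genes known to be induced by glucocorticoids (32.0%) and of 3.98% of all tested genes. The list of 25 was chosen with earlier results of these data known, so it is not an independent check. The 8 were Zbtb16, Klf15, Errfi1, Nfkbia, Ddit4, Arrdc2, Gjb6 and Hif3a, which include transcription factors, an inhibitor of NF-kappaB and a gap junction protein of astrocytes. Zbtb16 was at 55 CPM in WT replicate 2 and 50.1 CPM in KI-FL replicate 2. Arrdc2 was at 34.7 and 39.2 CPM in these mice. These mice differed in Xist (0.267 and 1210 CPM), and WT replicate 2 had the highest sum of striatal projection neuron markers (8730 CPM), whereas KI-FL replicate 2 had 6640 CPM. Their endothelial marker sums were 127 and 128 CPM, within the range of 96.8 to 185 CPM over all mice. In the KI-96 group, replicate 1 was the highest mouse for 4 of the 9 members (Fkbp5, Sgk1, Cdkn1a and Pdk4) and 7 of the 25 listed genes, and for 19.2% of all tested genes. This was not particular to that mouse. KI-96 replicate 4 was highest for 3 members and 8 listed genes (28.6% of all tested genes). Among KI-571 mice, replicate 4 was highest for 4 members and 7 listed genes (25.8%), and replicate 3 for 2 and 9 (22.6%).

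Zbtb16, a zinc finger transcription factor, and Plin4 had the same 6 mice at the top: WT replicate 2, KI-571 replicates 1, 2 and 4, and KI-FL replicates 1 and 2. For Zbtb16 these 6 mice were at 31.8 CPM or more and the next at 17.7 CPM. For Plin4 they were at 14.3 CPM or more and the next at 11.4 CPM. Of the 6, 5 were also among the 6 highest for Fkbp5, the other of which was KI-96 replicate 1. The summed CPM of 6 choroid plexus markers was 408 in WT replicate 2, 202, 5120 and 5340 in KI-571 replicates 1, 2 and 4, and 3040 and 185 in KI-FL replicates 1 and 2, against 36.7 to 194 in the other 13 mice. The value of KI-FL replicate 2 lay within that last range. Their part in the result was not tested.

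Over all tested genes, the 3 whose centred levels were most like those of Sgk1 were Klf15 (r = 0.928), Nfkbia (r = 0.882) and Errfi1 (r = 0.854), all of which are on the list of 25 other glucocorticoid-induced genes and were named after their values were seen. Klf15 and Errfi1 encode a Kruppel-like transcription factor and an inhibitor of EGF receptor signalling, and Nfkbia the NF-kappaB inhibitor. Without WT replicate 2 and KI-FL replicate 2 Klf15 stood at rank 1 of 18520 genes (r = 0.894), Nfkbia at rank 3 (r = 0.828) and Errfi1 at rank 8 (r = 0.766). Of the 25 listed genes, 10 were among the 5% of tested genes most like Sgk1, and 6 when those mice were left out. For Plin4 the count was 9, and 3 without those mice. For Pdk4 it was 9 and then 4, for Tsc22d3 8 and then 2, for Cdkn1a 8 and then 6, and for Fkbp5 4 and then 1. Mt1 had 2 and then 3, and the receptors 0 in both. The median r of the 25 genes was 0.308 with Sgk1, where that of all tested genes was 0.0076.

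The 5 genes most like Fkbp5 over the 19 mice were Olfr1393 (r = 0.855), Mertk (r = 0.835), Rnf150 (r = 0.815), Aff1 (r = 0.809) and B3galt5 (r = 0.809). None of these is on a list used here. Of the listed glucocorticoid-induced genes Klf9 (r = 0.759) and Zbtb16 (r = 0.753) stood at ranks 19 and 23 of 18520. Plin4 had Zbtb16 (r = 0.823) at rank 7, and Pdk4 had Mfsd2a (r = 0.774), a lipid transporter of the blood-brain barrier, at rank 4. All points share their libraries, and the genes were not independent of each other.

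**Figure D4:**
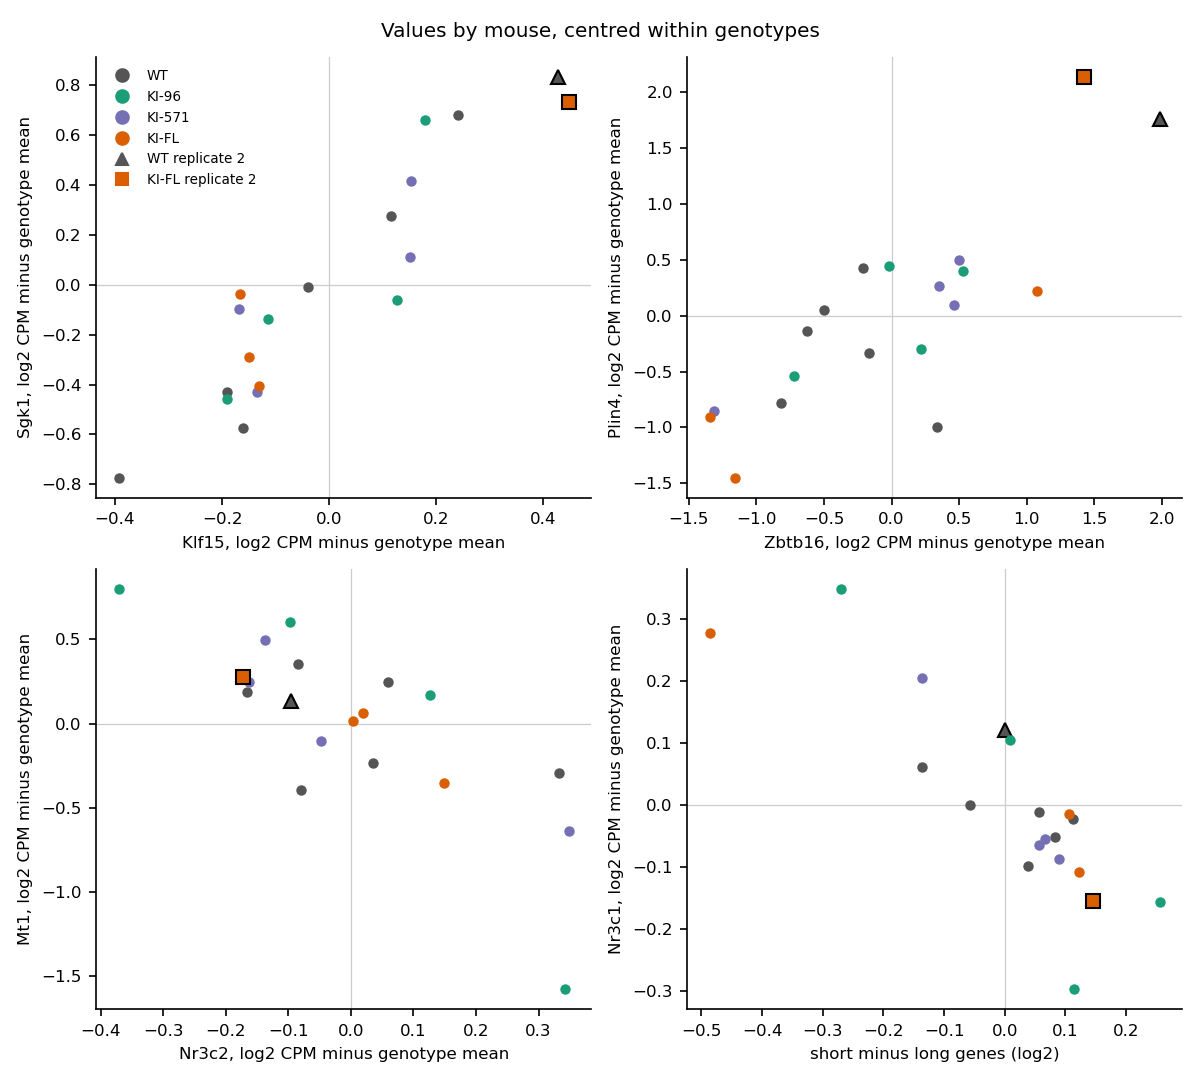
Centred values of 4 pairs of measures, 1 point for each of the 19 mice, in log2 units: Sgk1 against Klf15, Plin4 against Zbtb16, Mt1 against Nr3c2, and Nr3c1 against the median of short minus long genes. WT replicate 2 and KI-FL replicate 2 lie at the upper right of both upper panels, and the lower panels slope downward, with KI-96 replicate 3 lowest for Mt1.

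Mt1 and the receptors were opposed over the mice. The r of Mt1 was -0.797 with Nr3c1 (rho = -0.742, permutation p = 0.00142, adjusted p = 0.017) and -0.785 with Nr3c2 (rho = -0.781, permutation p = 0.00043, adjusted p = 0.017). Nr3c2 was also opposed to Tsc22d3 (r = -0.688, rho = -0.747, adjusted permutation p = 0.017), and the receptors went together (r = 0.747, rho = 0.770, adjusted permutation p = 0.0188). Mt1 went together with Tsc22d3 (r = 0.604, adjusted permutation p = 0.0181) and with Pdk4 (r = 0.591, adjusted permutation p = 0.0181). Without KI-96 replicate 3 and KI-571 replicate 1, the mice farthest from the median of Mt1, r was -0.553 with Nr3c1 and -0.663 with Nr3c2. In WT mice alone it was -0.311 and -0.446.

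A difference between short and long genes also varied between mice. The median centred log2 CPM of the 2512 tested genes with under 1500 exon bases, less that of the 4897 genes with over 6000, was lowest in KI-FL replicate 4 (-0.49), then KI-96 replicate 3 (-0.27), and highest in KI-96 replicate 4 (0.26). This measure had an r of 0.683 with Mt1 (1246 exon bases), 0.598 with Tsc22d3, -0.839 with Nr3c1 (7684 exon bases) and -0.738 with Nr3c2 (6474 exon bases). Its r was 0.073 with Sgk1, -0.0139 with Fkbp5 and 0.162 with Plin4. The 500 genes most like Mt1 had a median of 2162 exon bases and the 500 least like it 8976, where the median of all genes was 3851. The part of gene length in the correlations of Mt1 and the receptors was not tested.

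The wider pathway gave no call either. Of the 25 other glucocorticoid-induced genes, all tested, 0 passed in any of the 7 comparisons. In KI-96 mice 6 were above WT and 19 below, with a median log2 fold change of -0.11 (-0.02 over all genes), in KI-571 mice 17 were above and 8 below with a median of 0.05 (-0.01 over all genes), and in KI-FL mice 14 were above and 11 below with a median of 0.04 (-0.03 over all genes). The 9 tested members had medians of -0.34, 0.03 and 0.18 in these comparisons, with 6 of 9 below WT in KI-96 mice and 7 of 9 above in KI-FL mice. The counts in KI-96 mice include KI-96 replicate 3. That mouse was the lowest of its group for 12 of the 25 genes, 4 of the 9 members and 34.5% of all tested genes. Without KI-FL replicate 2, Tsc22d3, Plin4 and Cdkn1a turned negative in KI-FL mice, so that 4 of 9 remained above WT, and the 25 other genes had 11 above and 14 below. In the comparisons with WT, Tgm2, a transglutaminase, had the smallest p-value of the list, with a log2 fold change of 0.48 over all KI mice (SE 0.13, adjusted p = 0.125). It was at 5.27 to 9.57 CPM in WT mice and 7.72 to 12 CPM in KI mice. Nedd9 (-0.59 in KI-FL mice, adjusted p = 0.184) and Ddit4 (0.56 in KI-FL mice, adjusted p = 0.255) were the next of those with reads in all mice. Nedd9 was at -0.35 without KI-FL replicate 4, and Ddit4 at 0.22 without KI-FL replicate 2. Lcn2 had 0 to 3 counts in the KI-96 mice and 2 to 34 in the WT mice, and no fold is given for it.

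Of the 8 chaperones and co-chaperones of the receptor 0 passed in any comparison, and 6, 4 and 5 were above WT in KI-96, then KI-571, then KI-FL mice. The smallest p-values against WT belonged to Fkbp4, the relative of Fkbp5 that favours hormone binding, with a log2 fold change of 0.30 in KI-FL mice (SE 0.11, adjusted p = 0.195), and to Bag1 (0.29 in KI-FL mice), Hspa8 (0.26 in KI-96 mice) and Stip1 (0.19 in KI-96 mice). Without KI-FL replicate 4, Fkbp4 was at 0.19 and Bag1 at 0.16, and without KI-96 replicate 2 Stip1 was at 0.12. Of 8 coregulators 0 passed. All 8 were above WT in KI-96 mice with a median log2 fold change of 0.17, 3 in KI-571 and 8 in KI-FL mice, and Crebbp (0.23), Ncor1 (0.22) and Ncoa3 (0.21) were among those with the smallest p-values of the list against WT. The difference of short minus long genes was -0.27 in KI-96 replicate 3 and -0.49 in KI-FL replicate 4. Without KI-96 replicate 3, 5 of the 8 were above WT in KI-96 mice with a median of 0.05. Crebbp was then at 0.11, Ncor1 at 0.07 and Ncoa3 at 0.10. The count in KI-FL mice is given with KI-FL replicate 4 included. Ncor1 and Ncoa1 were also close to Nr3c2 over mice (r = 0.850 and 0.838). They have 12811 and 8576 exon bases, and the 500 genes most like Nr3c2 had a median of 8475. The part of gene length in this was not tested.

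Of 6 genes of hormone metabolism and transport 0 passed, and 2, 2 and 3 were above WT in the same order of genotypes. Hsd11b1, which regenerates active corticosterone inside the cell, had a log2 fold change of -0.51 over all KI mice (SE 0.24, adjusted p = 0.388), and -0.30 without WT replicate 3. Srd5a1 (0.23), Hsd11b2 (-0.95) and H6pd (0.20) had the next smallest p-values against WT, all in KI-FL mice, and Hsd11b2 had only 0 to 17 counts in a mouse. Without KI-FL replicate 4, Srd5a1 was at 0.09, Hsd11b2 at -0.55 and H6pd at -0.04. Of 7 genes of the corticotropin-releasing hormone system 5 were tested and 0 passed, with 0, 2 and 2 above WT. Crh, the releasing hormone, was at 0.855 to 4.21 CPM in WT mice and had a log2 fold change of -1.84 in KI-571 mice (SE 0.70, adjusted p = 0.461), and its receptor Crhr1 one of -0.49 in KI-571 mice. Crhbp was at -0.86 over all KI mice, and at -0.26 without WT replicate 3, which had 9.44 CPM of Crhbp and 1010 CPM of cortical neuron markers. Crhr2 was at -0.52 in KI-96 mice.

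Among 16 tested relatives of the members 0 passed, with 7, 10 and 8 above WT in KI-96, then KI-571, then KI-FL mice. Cdkn1c had a log2 fold change of 1.34 in KI-571 mice (SE 0.37, adjusted p = 0.207), with 4.08, 7.38, 2.14 and 9.08 CPM in the KI-571 mice, highest in replicates 2 and 4, which had 5120 and 5340 CPM of choroid plexus markers. Tsc22d1 (0.20 in KI-FL mice), Tsc22d2 (-0.19 in KI-571 mice) and Pgr (0.20 in KI-FL mice) followed among the comparisons with WT, and Pgr was at 0.13 without KI-FL replicate 4. The metallothionein Mt3 was at 73.9 CPM in KI-96 replicate 3 and 258 to 522 CPM in the other mice, and its r with Mt1 was 0.854.

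Cdkn1a, Pdk4 and Mt1 also respond to p53, PPAR receptors and metals. Of 8 other p53 targets, 6 PPAR targets and 4 genes of the metal response 0 passed in any comparison. Above WT in KI-96, then KI-571, then KI-FL mice were 2, 6 and 4 of the p53 targets, 3, 4 and 3 of the PPAR targets and 3, 2 and 3 of the metal response genes. The p53 targets with the smallest p-values against WT were Ccng1 (-0.26), Gadd45a (-0.88) and Bax (0.37) in KI-FL mice and Sesn2 (0.28) in KI-96 mice. Gadd45a was at 0 CPM in KI-FL replicate 4, the library with the fewest genes detected, and its value was -0.46 without that mouse. Among those of PPAR were Cpt1a, which brings fatty acids into mitochondria (0.34 in KI-571 mice, SE 0.11, adjusted p = 0.334), Acot1 (-0.60 in KI-FL mice) and Acadm (-0.18 in KI-96 mice). The 4 metal response genes had log2 fold changes of 0.19 for Slc30a1 in KI-FL mice, 0.18 for Mtf1 in KI-96 mice, -0.13 for Slc39a10 in KI-571 mice and -0.21 for Hmox1 in KI-96 mice. Without KI-96 replicate 3, Mtf1 was at 0.09, Hmox1 at -0.04 and Acadm at -0.03, and without WT replicate 3 Slc39a10 was at -0.07.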

How the data were processed

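Striatal total RNA of 19 mice was sequenced. The authors trimmed reads with BBduk, aligned them with STAR to GRCm38 and counted them with HTSeq, and deposited raw counts per gene. Versions, annotation and strand setting are not given in the sources used here. A further 4 columns of no mouse in the labels were not used, and the 5 summary lines (20.8% to 32.8% of reads) stayed out of library sizes. Genes were filtered (filterByExpr, minimum count 10, total 15), scaled by TMM and tested with the edgeR 4.0.16 quasi-likelihood test in R 4.3.3, genotype as the only term over all 19 mice, with Benjamini-Hochberg adjustment over 18521 genes at 0.05. The study's sacrifice batch and its removal of 1 WT mouse could not be used, since the labels name neither. Log2 CPM used a prior count of 2. Correlations used values centred within genotypes and 100000 permutations within genotypes. Positions and exon lengths came from GENCODE M21. The scripts were tested on simulated data.

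Totals on genes were 12669809 to 26388542 reads per mouse (median 18202412), and a level under 3 counts was read as not detectable. The labels call the mice separate samples but give no litter or day. Apart from the members, up to 4 genes of each pathway list with the smallest p-value in a comparison with WT, the 5 genes most like Fkbp5, Htt and Xist were named by rule, and 2 genes that the rule picks are not reported here. Other named genes were chosen after their values were seen. Members and lists were chosen with earlier results of these data known. Alternatives were DESeq2 1.42.0 and its size factors, other filters, thresholds and prior counts, Xist, a surrogate variable (sva 3.50.0) or the replicate number as a term, subsets of the WT mice, and each mouse left out in turn. Leaving out WT replicate 2 and KI-FL replicate 2 together, and leaving out each mouse for the listed genes, were chosen after seeing the data.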

Additional observations from a re-analysis of the deposited data

Results flagged for a closer look

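In 40 member and genotype combinations, 3 held a mouse well apart from its group, where chance flags about 1 in 20 groups. Gaps were taken on log2 CPM, and levels are given in CPM. Cdkn1a was at 8.51 CPM in KI-571 replicate 2 and at 14.8 to 15.7 CPM in the other KI-571 mice, a gap of 0.904 of the group's range against a limit of 0.829. Fkbp5 was at 61.1 CPM in WT replicate 2 and at 39.1 to 46.9 CPM in the other WT mice, a gap of 0.593 of the range against a limit of 0.568. Nr3c1 was at 111 CPM in KI-571 replicate 1 and at 90.2 to 92.3 CPM in the other KI-571 mice, a gap of 0.888 of the range against a limit of 0.829. With gaps taken on CPM, a scale chosen after seeing the data, 6 mice stood apart: these 3, Plin4 in WT replicate 2 (28.9 CPM, gap 0.706 against 0.568), Pdk4 in KI-FL replicate 2 (31.3 CPM, gap 0.854 against 0.829) and Nr3c2 in WT replicate 1 (64.3 CPM, gap 0.589 against 0.568).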

How the results depend on the processing

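The count of members called was 0 in every comparison and in every alternative run, except in KI-FL against WT mice, where it was 1 (Fkbp5) with DESeq2 and 1 at an adjusted p under 0.1. In that comparison 36 genes passed with edgeR and 509 with DESeq2. The main fit called 0 members, so there was no called value that could reverse. Of the 1953 log2 fold changes of members in the alternative runs, 88 had the opposite sign to the main fit, none of them called. The labels do not say whether replicate numbers pair the mice or follow the sacrifice batch, and the next values cannot settle it. Over 24 same-numbered pairs the correlation of deviations ran from -0.128 to 0.29 (median -0.00479), with 5 over 0.1. Over 108 other pairs of mice from different genotypes it ran from -0.457 to 0.338 (median -0.00494), with 11 over 0.1. With the replicate block 0 members were called in all 7 comparisons. The count of correlated pairs was 13, and it was 9 with Spearman rho in place of r. It was 8 when WT replicates 1 to 4 and 5 to 7 were centred apart, and 0 in the 13 mice with low Xist. Without WT replicate 2 and KI-FL replicate 2 it was 3. When each mouse was left out it ran from 7 (without KI-FL replicate 2) to 14 (without WT replicate 7), with 8 without WT replicate 2. None of the 13 pairs changed sign under these settings. With 4 mice in a KI group and a BCV of 0.24, small differences of the variable members could not be resolved.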
